A study of Mus musculus with 40 samples.

Results

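The NF-kB subunit genes and the genes of their IkB inhibitors were followed in mouse splenic B cells that carry or lack Bank1. They were chosen by name: Rel, Rela, Relb, Nfkb1, Nfkb2, Nfkbia, Nfkbib, Nfkbid, Nfkbie and Bcl3. Of these 10 genes 9 had a probe on the Illumina bead array, and all 9 were among the 9453 genes tested of 19057 genes with a probe. Nfkb1, the gene of p105 and p50, was not analysed here because no probe was annotated to it. Each gene was read by 1 probe, the one with the highest mean over the 40 libraries in the authors' processed table. Of the 9 genes 2, Nfkbia and Nfkbie, had a second probe, and the calls that it did not share are named beside the first probe.

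The study compared 8 groups of 5 biological replicates, formed by genotype and by hours in culture with CpG. CpG is unmethylated DNA of a bacterial type, sensed in B cells by Toll-like receptor 9. WT cells were taken at 0, 6, 24 and 48 h, and Bank1-/- cells at the same times, with the 0 h cells labelled as the control. All mice were of the C57BL/6 strain. The Bank1-/- line, backcrossed for 9 generations, is labelled as null on both copies, and the labels do not say whether the 5 replicates came from separate mice, so p-values measure the spread between these samples. For the WT animals the labels give 2 sources, littermates in one place and bought C57BL/6J mice in another, and they state neither age nor sex. B cells were enriched on magnetic beads by removing other cells, to a typical purity above 95% B220+CD3-. No group kept without CpG was analysed here, so CpG and time in culture cannot be told apart in any difference from 0 h.

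NF-kB is a family of transcription factors that act as pairs of subunits. c-Rel (from Rel), p65 (from Rela) and RelB (from Relb) can switch genes on, whereas p50 and p52 are cut from the precursors p105 and p100 and lack an activating domain of their own. In a resting cell the classical inhibitors IkB-alpha (Nfkbia), IkB-beta (Nfkbib) and IkB-epsilon (Nfkbie) hold the pairs in the cytoplasm. Toll-like receptors act through MyD88 and the IkB kinase, which marks these inhibitors for destruction and frees the subunits, and the freed subunits switch the Nfkbia gene back on. IkB-NS (Nfkbid) and Bcl-3 (Bcl3) are nuclear members that bind p50 or p52 on DNA. B cells depend on c-Rel to divide after activation. An array measures mRNA only, not the amount, cutting or position of these proteins.

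Promoter sequence was read for the genes that RefSeq lists with a start site (GRCm38.p6). Of the 10 genes 8 had an entry, with 12 starts between them. The 250 bases before each start were searched on both strands for the kappa B consensus, a motif of 10 bases that NF-kB pairs bind. It was found before 7 of the 12 starts, in 5 of the 8 genes: Rel, Nfkb2, Nfkbia, Nfkbid and Nfkbie. Of all 32851 windows of this length 7.25% held it. The windows below are those of the 2 inhibitor genes whose mRNA was higher after 6 h, of Nfkb2 at its first start, and of Rel, whose mRNA was lower. They are printed from 5′ to 3′ on the strand of the gene and end at the base before the start. Capitals mark matches to the motif, and overlapping matches run together.
Nfkbia, chr12:55492648-55492897, minus strand: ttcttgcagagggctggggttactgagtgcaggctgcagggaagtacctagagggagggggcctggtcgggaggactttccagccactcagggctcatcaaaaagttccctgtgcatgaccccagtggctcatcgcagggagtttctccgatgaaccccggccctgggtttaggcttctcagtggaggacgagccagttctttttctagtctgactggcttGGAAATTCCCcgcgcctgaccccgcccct
Nfkbie, chr17:45555450-45555699, plus strand: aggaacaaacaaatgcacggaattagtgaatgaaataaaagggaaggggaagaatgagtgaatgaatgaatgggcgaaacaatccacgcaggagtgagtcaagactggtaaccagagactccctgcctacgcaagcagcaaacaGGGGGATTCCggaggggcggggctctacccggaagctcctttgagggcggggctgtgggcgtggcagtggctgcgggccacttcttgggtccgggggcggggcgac
Nfkb2, chr19:46304487-46304736, plus strand: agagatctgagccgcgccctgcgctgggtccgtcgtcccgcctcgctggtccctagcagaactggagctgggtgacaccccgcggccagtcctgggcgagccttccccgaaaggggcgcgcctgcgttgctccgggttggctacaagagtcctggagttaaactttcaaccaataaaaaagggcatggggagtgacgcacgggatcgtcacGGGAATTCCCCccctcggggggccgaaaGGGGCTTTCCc
Rel, chr11:23770970-23771219, minus strand: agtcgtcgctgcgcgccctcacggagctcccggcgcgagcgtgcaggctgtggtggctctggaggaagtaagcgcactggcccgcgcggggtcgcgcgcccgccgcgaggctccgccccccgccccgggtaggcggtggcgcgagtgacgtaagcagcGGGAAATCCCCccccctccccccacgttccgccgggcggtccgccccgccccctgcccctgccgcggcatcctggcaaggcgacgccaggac
In the Nfkbia window the match began 29 bases before the start, and in the Nfkbie window 106 bases before it. The Nfkb2 window held 3 matches, of which 2 overlap, and the Rel window held 2 that overlap. No match was found in the windows of Rela, Nfkbib and Bcl3. A match is a likeness of letters and does not show that a factor binds there, and its absence says only that these letters are not in the window.

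The arrays differed in brightness, and 1 library stood apart. The mean raw signal of an array ran from 145.7 to 539.9, and from 10396 to 16767 of 45281 probes were detected. Among the 8 groups the mean was lowest in WT at 6 h (254 ± 118, SD, n = 5) beside 420 ± 97.9 (SD, n = 5) in Bank1-/- at 6 h. The library labelled Bank1-/- 0 h replicate 5 lay close to the 24 h libraries over all genes tested, with a root mean square distance of 0.159 on the log2 scale to the nearest Bank1-/- 24 h library and of 0.979 to the nearest other Bank1-/- 0 h library. Where a count of calls or a named difference that rests on it moved without it, both values are given. The second probes and the markers of cell types were read only with that library kept. Bank1 itself was lower in Bank1-/- at each time, with log2 differences of -1.84, -0.996, -2.42 and -2.26 at 0, 6, 24 and 48 h (limma, adjusted p = 0.00487 at most; -1.39 at 0 h without the library that stood apart), although its probe was not without signal in Bank1-/-. B cell markers were detected (10 of the 10 with a probe). Of 8 T cell genes with a probe, Cd3d, Cd3e, Cd4, Cd8a and Cd5 were detected on no array and 1 was tested. That T cell gene was called lower in Bank1-/- than in WT at 6 h (-0.27). In the NK list 2 of 5 genes with a probe were tested, and 0 were called between genotypes at 0 h. The summed NK level at 0 h ran from 10.57 to 13.49 on the log2 scale in Bank1-/- and from 11.00 to 12.27 in WT. In the dendritic list 4 of 7 were tested. Fewer cells of a type and less RNA per cell cannot be told apart in such bulk samples.

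Levels are given below as normalized log2 intensity, and differences as log2 differences with their standard errors (SE) from limma. Adjusted p-values are by the Benjamini-Hochberg method over all 9453 genes, and a gene is called at an adjusted p under 0.05. A level of 1 probe cannot be set against that of another.

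In WT cells most of these genes were lower after CpG than before it, each with its own timing. After 6 h, 2 of 9 were higher and 4 lower, where 66.5% of all genes were called. Without the library that stood apart 2 were higher and 5 lower after 6 h, where 69.3% were called. After 24 h, 0 were higher and 8 lower, with 64.7% of all genes called. After 48 h, 2 were higher and 7 lower, with 55.0% of all genes called. At 6 h, 6 of 9 called is near the share of all genes. The median difference of the 9 genes from 0 h was -0.35, -1.65 and -1.51 at 6, 24 and 48 h, beside -0.0096, 0.036 and 0.013 over all genes tested. Markers moved with the time course in the same WT libraries. The summed level of the B cell list ran from 15.23 to 15.31 on the log2 scale at 0 h, from 13.39 to 13.57 at 6 h, from 13.04 to 13.15 at 24 h and from 14.68 to 15.26 at 48 h, and 8 of its 10 genes were lower at 6 h than at 0 h. The myeloid list ran from 10.38 to 10.78 at 0 h and from 9.77 to 10.03 at 6 h (1 of 5 genes higher and 3 lower), with Cd14, Itgam, Mpo and Fcgr1 detected on no array. The erythroid list ran from 10.08 to 10.66 at 0 h and from 10.96 to 11.55 at 6 h, with 2 of 5 genes higher. The part of these markers in the differences from 0 h was not tested.

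**Figure D1:**
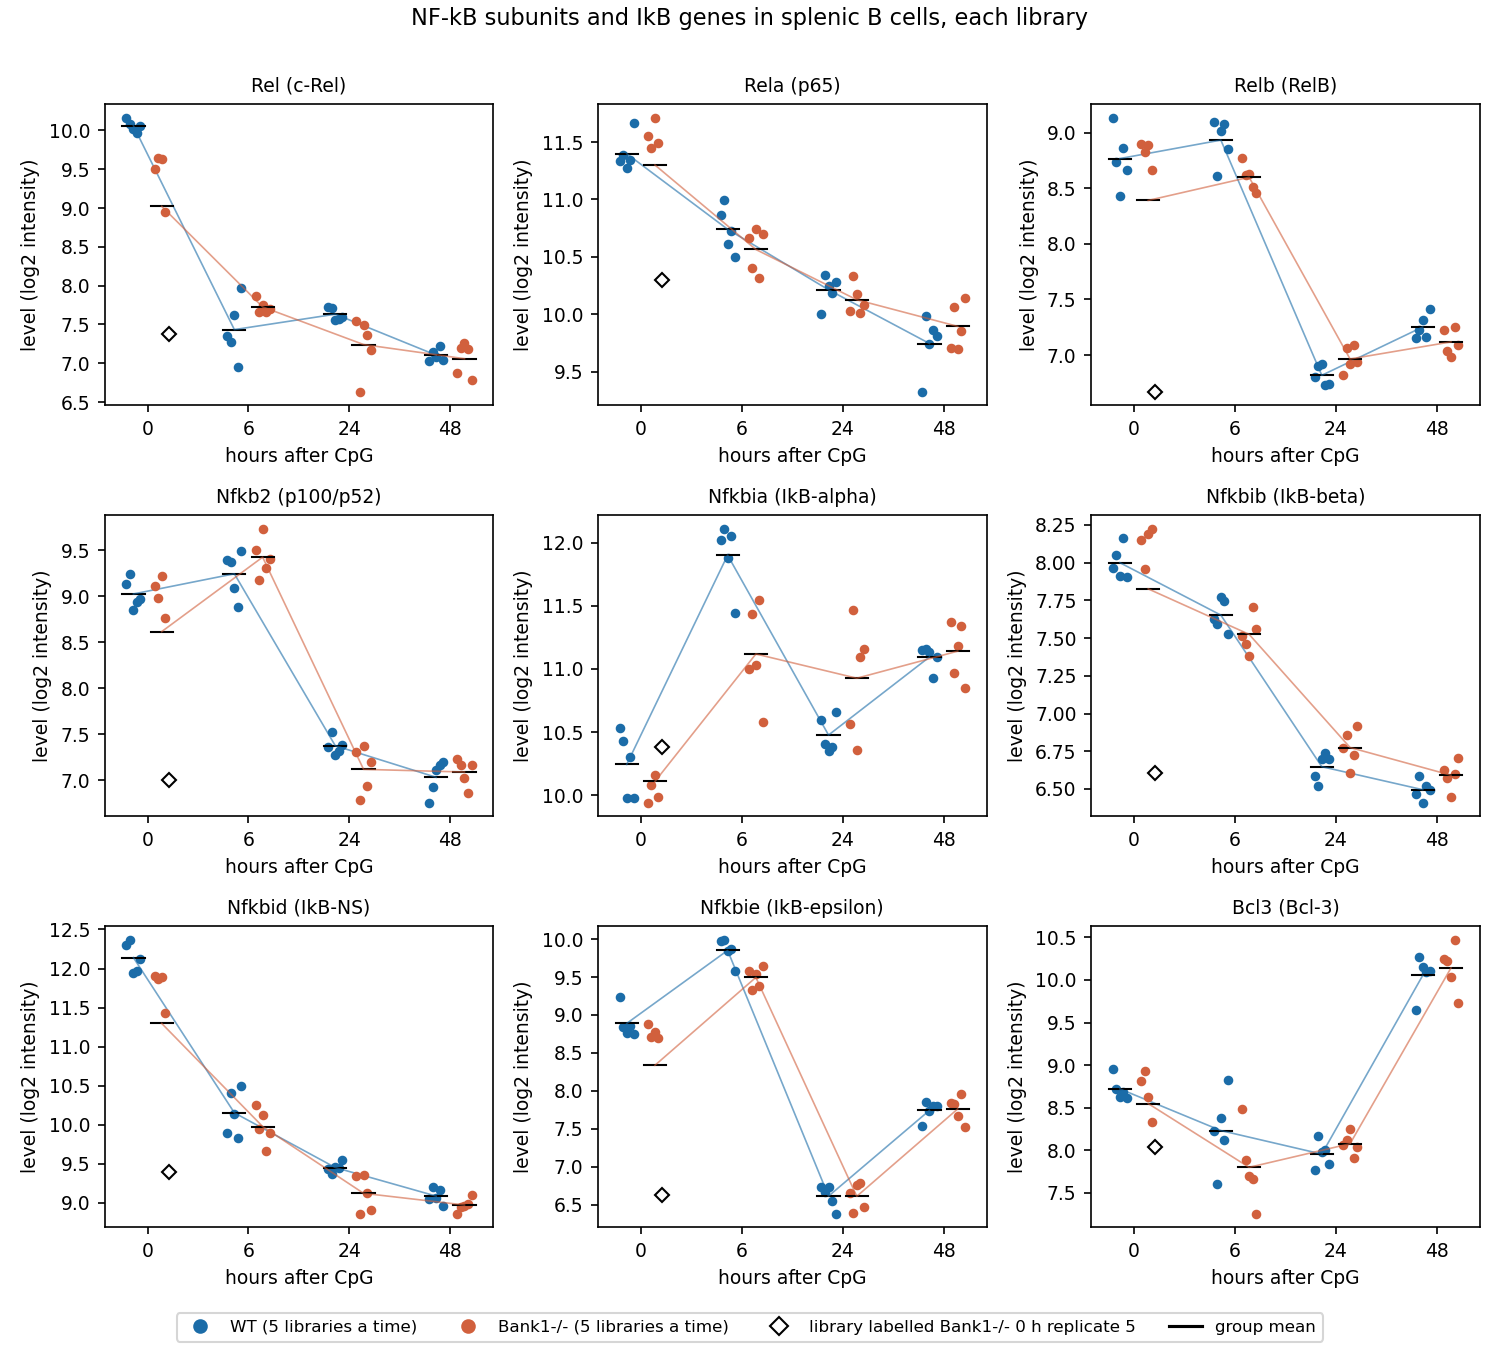
Normalized log2 intensity (vertical axes, a separate scale for each gene) of the 9 genes in each library, by hours after CpG (horizontal axes) and genotype; black bars are means of 5 libraries and the open diamond is the library labelled Bank1-/- 0 h replicate 5. Rel was highest at 0 h, Nfkbia and Nfkbie peaked at 6 h in WT, and Bcl3 was highest at 48 h.

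Rel, the subunit c-Rel, was highest before stimulation. The 5 WT libraries stood at 10.16, 10.09, 10.02, 9.97 and 10.05 at 0 h. At 6 h they stood at 7.35, 7.28, 7.62, 6.95 and 7.96. The groups did not overlap, and Rel fell 6.17-fold in 6 h (log2 difference -2.63, SE 0.239, adjusted p = 4.45e-12). At 24 h the WT libraries stood at 7.72, 7.71, 7.56, 7.57 and 7.60, and at 48 h at 7.03, 7.14, 7.08, 7.22 and 7.04. The level thus stayed near that of 6 h, with a log2 difference of 0.20 from 6 to 24 h (SE 0.239, adjusted p = 0.497). From 0 to 48 h Rel fell 7.75-fold (log2 difference -2.95, adjusted p = 6.49e-13).

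Rela, the subunit p65, fell step by step in WT with quantile normalization. Its 5 WT libraries ran from 11.27 to 11.66 at 0 h, from 10.50 to 11.00 at 6 h, from 10.01 to 10.34 at 24 h and from 9.33 to 9.99 at 48 h, with no overlap between any time and the next. The log2 difference from 0 h was -0.66 at 6 h, -1.19 at 24 h and -1.65 at 48 h (adjusted p = 0.000571, 7.59e-08 and 8.75e-11). Scaling the arrays to a common median in place of quantile normalization turned the difference from 6 to 24 h from -0.53 (adjusted p = 0.00598) to 0.75 (adjusted p = 0.0595), when the median of all genes itself moved by 0.55. With median scaling Rela was also not called from 0 to 24 h (-0.79, adjusted p = 0.0561) or from 24 to 48 h (-0.33, adjusted p = 0.482). The step from 24 to 48 h also lost its call without WT 48 h replicate 1 (-0.36, adjusted p = 0.0675).

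Relb and Nfkb2 are the subunits of the alternative pathway, in which p100 is cut to p52 and pairs with RelB. Both held their level for 6 h and were low by 24 h. Relb ran from 8.43 to 9.13 in WT at 0 h and from 8.61 to 9.10 at 6 h, and the groups overlapped (log2 difference 0.17, SE 0.223, adjusted p = 0.526). At 24 h it ran from 6.73 to 6.92, 4.33-fold below 6 h (adjusted p = 3.3e-10). Nfkb2 ran from 8.85 to 9.24 in WT at 0 h and from 8.88 to 9.49 at 6 h (log2 difference 0.22, adjusted p = 0.398). At 24 h it ran from 7.28 to 7.53, 3.65-fold below 6 h (adjusted p = 5.24e-09). The 2 genes followed each other over the 8 group means (Pearson r = 0.958, n = 8 groups), while Rel and Nfkb2 did less so (r = 0.549). These correlations are descriptions, since all genes share the same arrays.

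Of the classical inhibitors Nfkbia and Nfkbie were higher at 6 h in WT and Nfkbib was not. Nfkbia, which encodes IkB-alpha, stood at 10.54, 10.43, 9.98, 10.30 and 9.98 in WT at 0 h. At 6 h the libraries stood at 12.02, 12.11, 11.88, 12.05 and 11.44, all above every 0 h library. It rose 3.15-fold (log2 difference 1.66, SE 0.169, adjusted p = 6.86e-11). At 24 h the WT libraries stood at 10.60, 10.40, 10.35, 10.38 and 10.66, and the difference from 0 h was no longer called (log2 difference 0.23, adjusted p = 0.229). At 48 h they stood at 11.15, 11.16, 11.14, 10.93 and 11.10, again above every 0 h library (log2 difference 0.85, adjusted p = 5.21e-05). The second Nfkbia probe did not show the same peak, with a log2 difference from 0 to 6 h of 0.44 (SE 0.228, adjusted p = 0.0889) and from 6 to 24 h of -0.029 (adjusted p = 0.926). Its difference from 0 to 48 h was 0.59 (adjusted p = 0.0279).

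Nfkbie, which encodes IkB-epsilon, had the widest swing of the 3 classical inhibitors. Its WT libraries stood at 9.23, 8.84, 8.76, 8.86 and 8.75 at 0 h, and at 9.97, 9.99, 9.85, 9.87 and 9.57 at 6 h. It rose 1.95-fold (adjusted p = 0.000261). At 24 h the libraries stood at 6.73, 6.66, 6.73, 6.55 and 6.38, of which 4 of 5 were above the detection limit, 9.45-fold below 6 h (log2 difference -3.24, SE 0.223, adjusted p = 7.23e-15). At 48 h they stood at 7.54, 7.85, 7.73, 7.79 and 7.79, above every 24 h library and below every 0 h library (1.13 above 24 h on the log2 scale, adjusted p = 4.75e-05). The dimmer second Nfkbie probe, detected on 26 of 40 arrays, gave 0.95 from 0 to 6 h (adjusted p = 7.15e-06) and -1.73 from 6 to 24 h (adjusted p = 6.82e-11). Its difference from 24 to 48 h was not called (0.23, adjusted p = 0.263). With median scaling the rise of Nfkbie from 0 to 6 h was gone (-0.017, adjusted p = 0.976), when the median of all genes moved by -0.38.

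**Figure D2:**
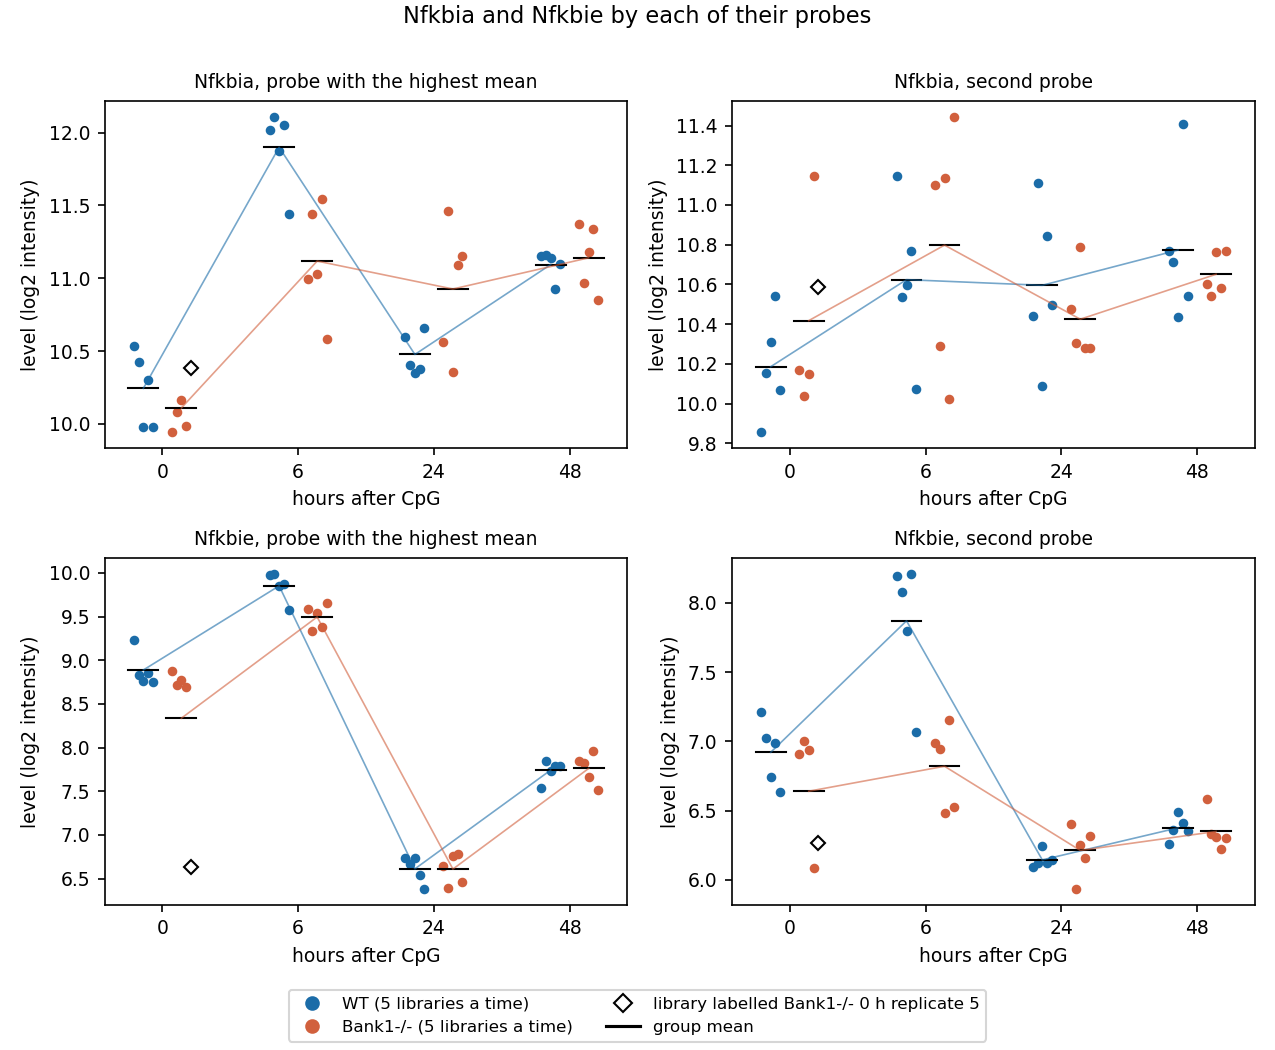
Normalized log2 intensity (vertical axes) of Nfkbia and Nfkbie by the probe with the highest mean (left) and by the second probe (right), each library by hours after CpG (horizontal axes), with means of 5 as black bars. The first Nfkbia probe peaked at 6 h in WT and the second did not, whereas both Nfkbie probes were highest at 6 h in WT.

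Nfkbib, which encodes IkB-beta, only fell. It ran from 7.91 to 8.16 in WT at 0 h, from 7.52 to 7.77 at 6 h, from 6.52 to 6.74 at 24 h and from 6.41 to 6.58 at 48 h. The step to 6 h was not called (log2 difference -0.35, SE 0.161, adjusted p = 0.0565), though the groups did not overlap, and it was called without the library that stood apart (adjusted p = 0.000155). From 6 to 24 h it fell 2.01-fold (adjusted p = 1.86e-06).

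The nuclear members differed in direction from 0 h at 48 h, when Nfkbid was lower and Bcl3 higher. Nfkbid, which encodes IkB-NS, ran from 11.94 to 12.37 in WT at 0 h and from 9.83 to 10.49 at 6 h, a fall of 3.97-fold (log2 difference -1.99, adjusted p = 1.08e-08). It ran from 9.37 to 9.55 at 24 h and from 8.95 to 9.21 at 48 h, 8.31-fold below 0 h (adjusted p = 1.1e-12). Over the 8 group means it went with Rel (r = 0.967). Bcl3 stood at 8.96, 8.72, 8.62, 8.68 and 8.62 in WT at 0 h and at 9.65, 10.27, 10.15, 10.09 and 10.10 at 48 h. All 48 h libraries were above all 0 h libraries. Before that, Bcl3 was lower than at 0 h, by a log2 difference of -0.49 after 6 h (adjusted p = 0.0183) and of -0.77 after 24 h (adjusted p = 0.000409). Its call after 6 h ended without WT 0 h replicate 1 (-0.43, adjusted p = 0.0519) or WT 6 h replicate 2 (-0.33, adjusted p = 0.106). Bcl3 rose 4.28-fold from 24 to 48 h (log2 difference 2.10, SE 0.183, adjusted p = 3.93e-12).

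Between consecutive times in WT the genes moved as follows. From 6 to 24 h 0 of 9 were higher and 7 lower, with 57.3% of all genes called. Rel and Bcl3 were the 2 not called. From 24 to 48 h 3 were higher (Nfkbia, Nfkbie and Bcl3) and 1 lower (Rela), with 53.7% of all genes called. On the second probes neither Nfkbia (0.18, adjusted p = 0.543) nor Nfkbie (0.23, adjusted p = 0.263) was called. Without the library that stood apart, which is in neither of these groups but enters the shared spread, 4 were higher and 4 lower from 24 to 48 h. Relb was then called higher (0.43, adjusted p = 0.00027), and Rel, Nfkb2 and Nfkbid were then called lower (-0.53, -0.34 and -0.37, with adjusted p = 0.0018, 0.0148 and 0.0096). Without WT 48 h replicate 1, Rela was not called (-0.36, adjusted p = 0.0675).

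In Bank1-/- cells after 6 h, 3 of 9 genes were higher and 4 lower than at 0 h, with 60.7% of all genes called. After 24 h, 1 was higher and 8 lower, with 59.8% called. After 48 h, 2 were higher and 7 lower, with 51.0% called. From 6 to 24 h 0 were higher and 6 lower (51.8% of all genes called), and from 24 to 48 h 2 were higher and 0 lower (53.9% called). Without the library that stood apart the count became 3 higher and 5 lower from 0 to 6 h, 0 higher and 7 lower from 6 to 24 h, where Rel was then called (-0.48, adjusted p = 0.00412), and 2 higher and 1 lower from 24 to 48 h. The counts from 0 to 24 h and from 0 to 48 h were as before. On the second probes Nfkbia was not called from 0 h at 6, 24 or 48 h in Bank1-/- (0.38, 0.0072 and 0.23, adjusted p = 0.15, 0.982 and 0.412). Nfkbie by its second probe was not called from 0 to 6 h, 0 to 48 h or 24 to 48 h (0.18, -0.29 and 0.14, adjusted p = 0.371, 0.155 and 0.521).

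Rel stood at 9.50, 9.64, 9.63, 8.95 and 7.38 in Bank1-/- at 0 h, the last being the library that stood apart. At 6 h it stood at 7.87, 7.66, 7.74, 7.66 and 7.70, so that this library lay below all 6 h libraries and the other 4 above them. Rel fell by 1.30 on the log2 scale from 0 to 6 h (adjusted p = 1.42e-05), and by 1.71 without that library (adjusted p = 1.22e-12). The same library was at 6.63 for Nfkbie and at 6.67 for Relb, where the other 4 ran from 8.70 to 8.87 and from 8.66 to 8.90. For Rel, Rela, Nfkb2, Nfkbia, Nfkbib, Nfkbie and Bcl3 its level lay within the range of the 5 Bank1-/- 24 h libraries. Nfkb2 rose from 0 to 6 h in Bank1-/- by 0.81 with it and by 0.41 without it (adjusted p = 0.00196 and 0.00574).

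In Bank1-/- Nfkbie stood at 9.58, 9.33, 9.54, 9.38 and 9.65 at 6 h and at 6.65, 6.39, 6.76, 6.78 and 6.46 at 24 h, where 3 of 5 libraries were above the detection limit (7.39-fold lower at 24 h, adjusted p = 1.61e-13). Bcl3 in Bank1-/- stood at 8.07, 8.12, 8.24, 7.91 and 8.04 at 24 h and at 10.25, 10.22, 10.04, 10.47 and 9.73 at 48 h. It rose 4.18-fold (log2 difference 2.06, adjusted p = 7.2e-12), beside 4.28-fold in WT. For both genes the 48 h libraries lay above the 24 h libraries in each genotype.

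**Figure D3:**
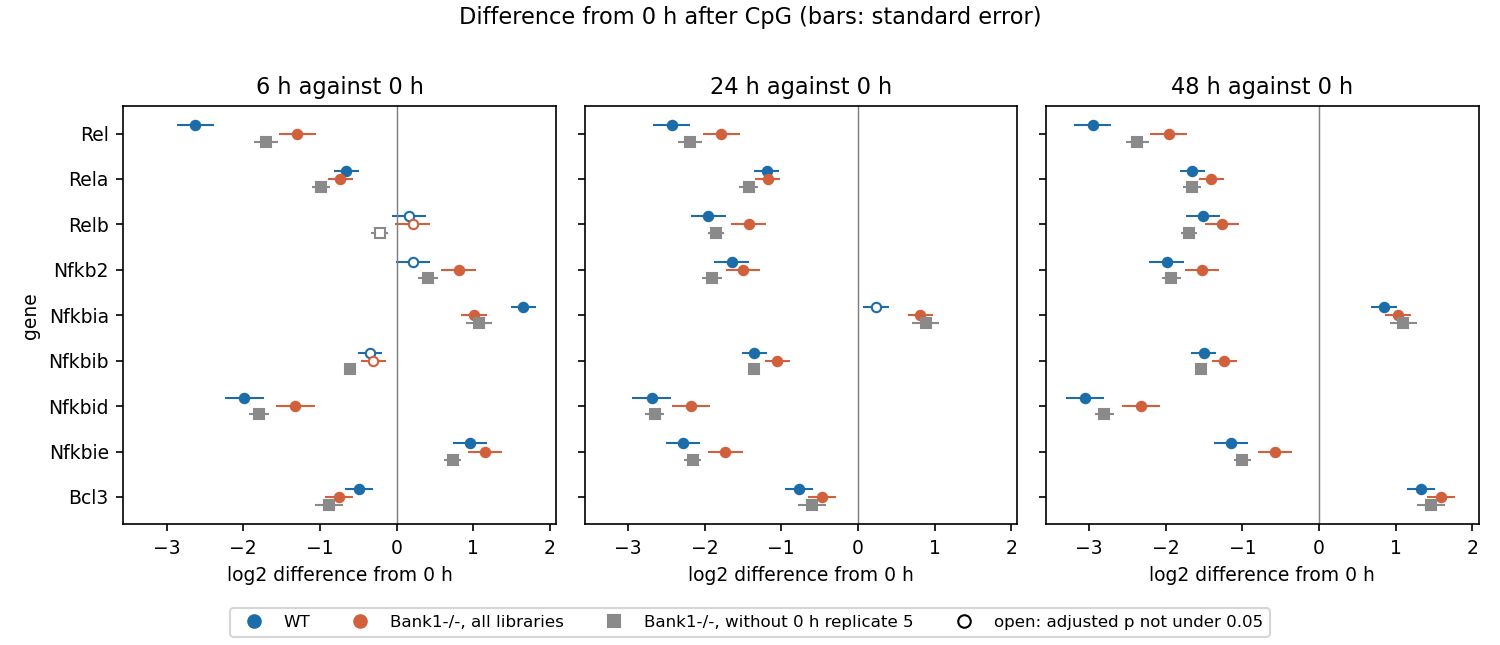
Log2 difference from 0 h (horizontal axes, bars are standard errors) of the 9 genes at 6, 24 and 48 h in WT, in Bank1-/- and in Bank1-/- without the 0 h library that stood apart; open points were not called at an adjusted p under 0.05. Rel and Nfkbid lay farthest below 0 h, and at 48 h only Nfkbia and Bcl3 lay above it.

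Few of these genes differed between the genotypes at a given time. At 0 h 0 were higher in Bank1-/- and 1 was lower (Rel), where 1.52% of all genes were called. At 6 h 0 were higher and 1 was lower (Nfkbia), where 22.1% of all genes were called. At 24 h limma called 0 of 9 (1 at an unadjusted p under 0.05, Nfkbia) where 0.106% of all genes were called. At 48 h it called 0 of 9 (0 at an unadjusted p under 0.05) where 0.169% were called. The median of the 9 differences was -0.38, -0.18, -0.0024 and 0.046 at 0, 6, 24 and 48 h. That at 0 h was -0.043 without the library that stood apart.

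**Figure D4:**
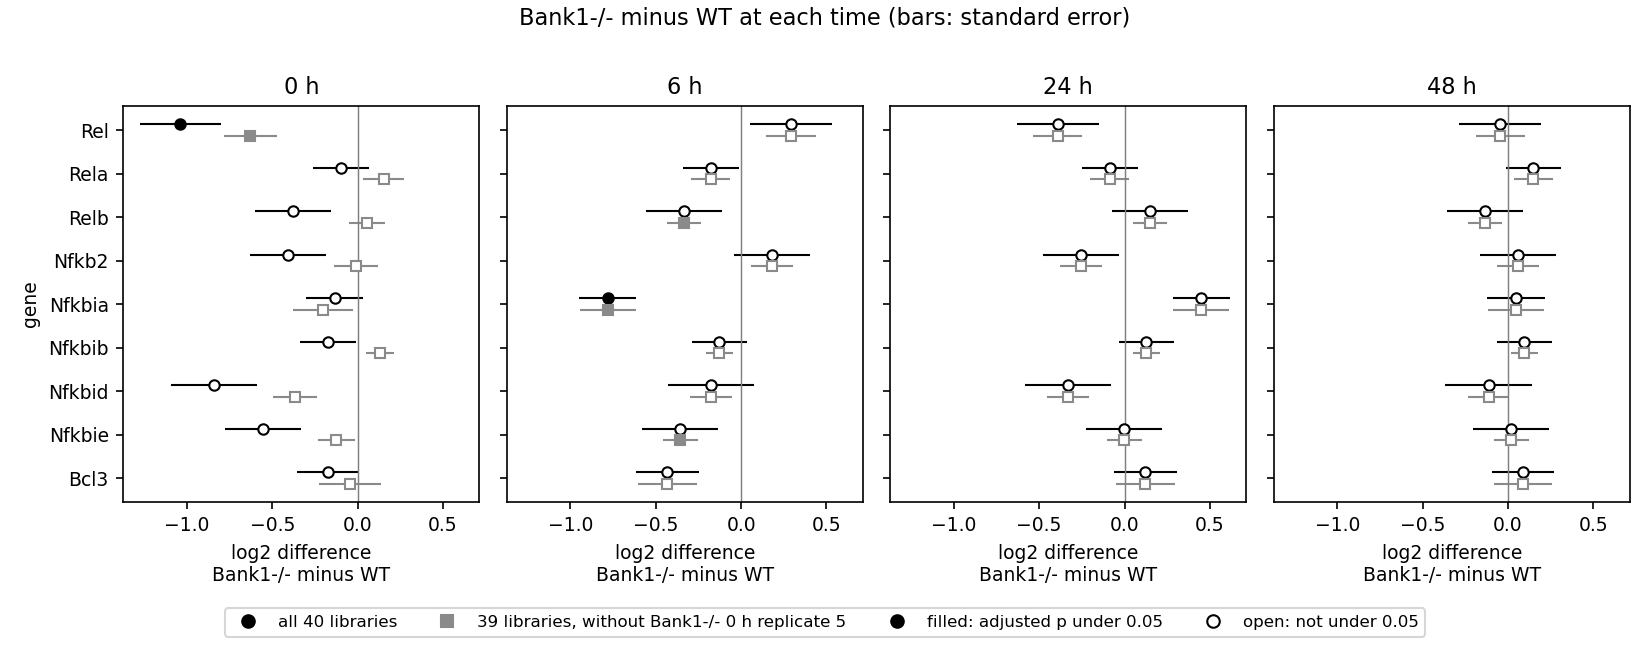
Log2 difference of Bank1-/- from WT (horizontal axes, bars are standard errors) for the 9 genes at each time, over all 40 libraries (black circles) and without the library that stood apart (grey squares); filled points were called at an adjusted p under 0.05. Rel at 0 h and Nfkbia at 6 h were called in both fits, and Relb and Nfkbie at 6 h only without that library.

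Rel was lower in Bank1-/- before stimulation. The 5 Bank1-/- libraries (9.50, 9.64, 9.63, 8.95 and 7.38) all lay below the 5 WT libraries (9.97 to 10.16). The difference was -1.04 on the log2 scale (SE 0.239, adjusted p = 0.0175), 2.05-fold. Without the library that stood apart it was -0.63 (SE 0.153, adjusted p = 0.0268), and the other 4 Bank1-/- libraries still lay below all WT libraries. The call ended when WT 0 h replicate 1 was left out (-1.01, adjusted p = 0.0586), with median scaling (-0.83, adjusted p = 0.789) and when the 2 groups were fitted alone (-1.04, adjusted p = 0.636). Nfkbid also had non-overlapping groups at 0 h, from 9.39 to 11.91 in Bank1-/- and from 11.94 to 12.37 in WT, and was not called (-0.84, adjusted p = 0.0791, and -0.37 without that library, adjusted p = 0.169). Of 5 myeloid markers tested 0 were higher and 2 lower in Bank1-/- at 0 h (median -0.52), where 1.52% of all genes were called. Of 10 B cell markers 0 were called (median -0.40). These marker values include the library that stood apart. The summed myeloid level at 0 h ran from 9.60 to 10.55 in Bank1-/- and from 10.38 to 10.78 in WT. That of the B cell list ran from 13.14 to 15.38 in Bank1-/- and from 15.23 to 15.31 in WT. In Bank1-/- at 24 h the myeloid level ran from 9.54 to 9.67 and the B cell level from 13.08 to 13.25. The part of these markers in the 0 h differences was not tested.

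At 6 h the genotypes overlapped for Rel. The Bank1-/- libraries ran from 7.66 to 7.87, inside the WT range of 6.95 to 7.96 (log2 difference 0.29, SE 0.239, adjusted p = 0.406). The change of Rel from 0 to 6 h differed between genotypes by 1.33 (Bank1-/- minus WT, SE 0.338, adjusted p = 0.0137), since the fall was smaller in Bank1-/-. It was 0.92 without the library that stood apart (SE 0.210, adjusted p = 0.00552). The call ended with array brightness as a covariate (1.16, adjusted p = 0.0514) and with median scaling (1.60, adjusted p = 0.138). It also ended when the compared groups were fitted alone (1.33, adjusted p = 0.134). Rel was the 1 gene of 9 called in this comparison, where 9.39% of all genes were called. Nfkbie was called lower by its second probe (-0.77, adjusted p = 0.0391). Its first probe went the other way over all 40 libraries and was not called. Without the library that stood apart the first probe also went lower, and was not called (-0.23, adjusted p = 0.301). Of the markers 3 of 5 myeloid, 2 of 5 erythroid and 1 of 4 platelet genes were higher in this comparison, with 0 lower in each list. The library that stood apart was kept for these marker counts. The part of these markers in the change of Rel was not tested. For the change from 0 to 24 h limma called 0 of 9 (1 at an unadjusted p under 0.05) where 0.465% of all genes were called. For the change from 0 to 48 h it called 0 of 9 (2 at an unadjusted p under 0.05) where 0.0952% were called.

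Nfkbia was lower in Bank1-/- at 6 h by its first probe and not by its second. By the first probe the Bank1-/- libraries stood at 11.00, 11.44, 11.03, 11.54 and 10.58, and the WT libraries at 12.02, 12.11, 11.88, 12.05 and 11.44. Only WT replicate 5 lay among the Bank1-/- libraries, and the difference was -0.78 (SE 0.169, adjusted p = 0.00131), 1.72-fold. By the second probe the Bank1-/- libraries stood at 11.10, 10.29, 11.13, 10.02 and 11.44, and the WT libraries at 11.14, 10.54, 10.59, 10.77 and 10.07. These groups overlapped fully, and the difference was 0.17 (SE 0.228, adjusted p = 0.631).

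The array brightness at 6 h is given beside these levels. WT replicate 5, the brightest WT array at this time (mean raw signal 455 beside 145.7 to 232), had the lowest WT level on both probes. In Bank1-/- replicates 2 and 4 were the dimmest (348 and 290 beside 443 to 511). They had the highest levels on the first probe, 11.44 and 11.54, and the lowest on the second, 10.29 and 10.02. With array brightness as a covariate the first probe's difference between genotypes was -0.43 (SE 0.159, adjusted p = 0.132). With median scaling it was 0.37 (adjusted p = 0.175), when the median of all genes moved by 0.55. Erythroid markers also moved with the genotype at 6 h: 4 of 5 tested were higher in Bank1-/-, and their summed level ran from 12.03 to 13.35 on the log2 scale in Bank1-/- and from 10.96 to 11.55 in WT. Hba-a1, a globin gene, differed by 2.21 (adjusted p = 2.3e-05). The part of these markers in the 6 h differences was not tested.

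By their first probes the other inhibitors and subunits were not called between the genotypes at 6 h over all 40 libraries. Nfkbie ran from 9.33 to 9.65 in Bank1-/- and from 9.57 to 9.99 in WT (log2 difference -0.36, SE 0.223, adjusted p = 0.258). It was called without the library that stood apart (adjusted p = 0.0083). With array brightness as a covariate it was -0.32 (adjusted p = 0.57). Its second probe gave -1.05 (adjusted p = 5.25e-05), from 6.48 to 7.15 in Bank1-/-. In WT the brightest array, replicate 5, stood at 7.07 on that probe and the others from 7.80 to 8.21. Relb had a difference of -0.33 (adjusted p = 0.293), called without the library that stood apart (adjusted p = 0.0106). With array brightness as a covariate the Relb difference was -0.23 (adjusted p = 0.716). Bcl3 had a difference of -0.43 (adjusted p = 0.0851), from 7.25 to 8.49 in Bank1-/- and from 7.61 to 8.83 in WT. With the library that stood apart left out 3 of 9 were lower in Bank1-/- at 6 h (Relb, Nfkbia and Nfkbie), where 30.7% of all genes were called.

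At 24 and 48 h none of the 9 genes was called between the genotypes. Nfkbia had the largest difference at 24 h, with Bank1-/- libraries at 10.56, 11.46, 10.36, 11.09 and 11.16 and WT libraries at 10.60, 10.40, 10.35, 10.38 and 10.66 (log2 difference 0.45, SE 0.169, adjusted p = 0.366). The groups overlapped, and the 95% interval ran from 0.11 to 0.79. Its second probe went the other way at 24 h (-0.17, adjusted p = 0.791). Rel ran from 6.63 to 7.55 in Bank1-/- and from 7.56 to 7.72 in WT at 24 h, which do not overlap. The difference of -0.39 was not called (adjusted p = 0.514). In Bank1-/- 4 of 5 libraries were above the detection limit for Rel, and the lowest, replicate 2, lay below its limit of 6.73. Nfkbid likewise did not overlap at 24 h, from 8.86 to 9.36 in Bank1-/- and from 9.37 to 9.55 in WT, and was not called (-0.33, adjusted p = 0.595). At 48 h the 9 differences ran from -0.13 to 0.15, and the groups overlapped for each of the 9 genes.

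The rest of the pathway was read in 3 lists. The first held genes from the receptor to the IkB kinase and to NIK, the kinase of the alternative pathway (27 of 33 tested). The second held brakes and nuclear partners of NF-kB (20 of 24 tested), and the third known target genes (36 of 40 tested). The lists share Tnfaip3, Birc3 and Cd40, which count in each list that holds them. The lists were chosen with earlier results of these data known, so their counts are descriptions. The targets went up and down with the time course. In WT 19 of 36 rose and 7 fell from 0 to 6 h (median log2 difference 0.43 beside -0.0096 over all genes), where 66.5% of all genes were called. From 6 to 24 h 2 rose and 27 fell (median -0.96 beside 0.036), where 57.3% were called. Without the library that stood apart these counts were 22 and 7, and 3 and 28, where 69.3% and 61.9% of all genes were called. Stat5a, a signal transducer of cytokine receptors, rose 5.64-fold in 6 h (adjusted p = 2.31e-22) and fell 5.95-fold by 24 h (adjusted p = 1.94e-22). Gadd45b, a stress-induced gene that limits cell death, rose 6.31-fold in 6 h (adjusted p = 2.65e-19). Ebi3, a subunit of cytokines of the IL-12 family, rose 10.6-fold (adjusted p = 6.19e-18). In Bank1-/- 28 targets rose and 6 fell from 0 to 6 h (median 0.91 beside 0.022 over all genes), where 60.7% of all genes were called. Without the library that stood apart 27 rose and 7 fell (median 0.83), where 65.6% were called. From 6 to 24 h 1 rose and 30 fell (median -1.10 beside -0.036), where 51.8% were called. Without that library 1 rose and 31 fell, where 56.5% were called.

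**Figure D5:**
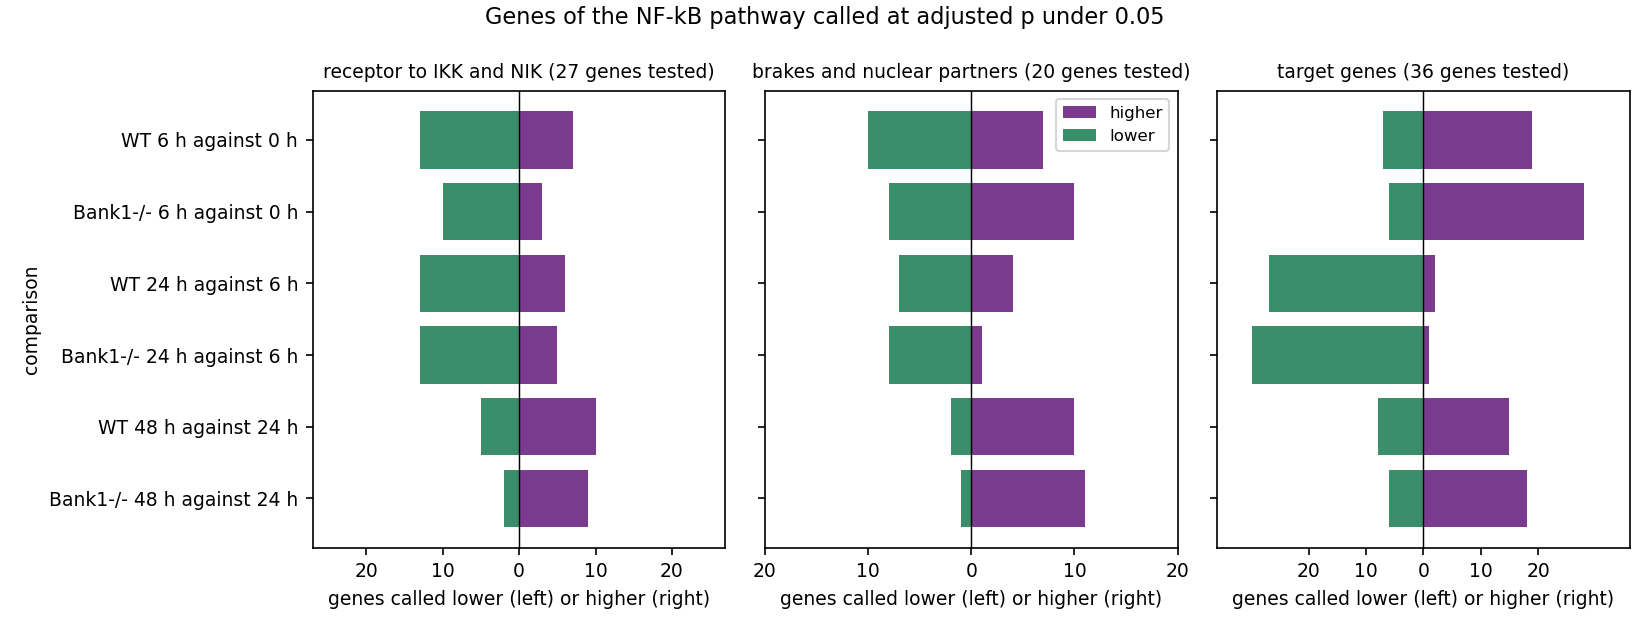
Genes of 3 pathway lists called lower (bars to the left) or higher (bars to the right) at an adjusted p under 0.05 between consecutive times in each genotype (horizontal axes, number of genes). Most targets were higher at 6 h than at 0 h and lower at 24 h than at 6 h in both genotypes.

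In the list from the receptor to the kinases 7 of 27 genes rose and 13 fell in WT from 0 to 6 h (median -0.41), where 66.5% of all genes were called. Without the library that stood apart 8 rose and 13 fell, where 69.3% were called. In Bank1-/- 3 rose and 10 fell (median -0.0073, and -0.19 without the library that stood apart, with the same counts), where 60.7% of all genes were called. Irak3, a brake on Toll-like receptor signalling, fell 5.52-fold in WT (adjusted p = 6.08e-19) and rose 9.92-fold from 6 to 24 h (adjusted p = 2e-22). Malt1, the protease of a complex that feeds the IkB kinase, fell 9.10-fold in WT in 6 h (adjusted p = 9.14e-15), and Ikbke, an IkB kinase relative, rose 2.79-fold (adjusted p = 1.08e-13). Tlr9 and Myd88, the CpG receptor and its adaptor, picked here after their values were seen, had differences of 0.16 and 0.18 from 0 to 6 h in WT (adjusted p = 0.128 and 0.296). From 24 to 48 h 10 of 27 rose and 5 fell in WT (median 0.22), where 53.7% of all genes were called. Without the library that stood apart 12 rose and 5 fell, where 57.9% were called. Map3k14, the gene of NIK, rose 2.95-fold (adjusted p = 7.84e-10). Birc2, a ubiquitin ligase that holds NIK down, rose 2.85-fold (adjusted p = 1.44e-08).

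Among the brakes and nuclear partners 7 of 20 rose and 10 fell in WT from 0 to 6 h (median -0.29), where 66.5% of all genes were called. In Bank1-/- 10 rose and 8 fell (median 0.28), where 60.7% were called, and 9 and 8 without the library that stood apart (median 0.22). Nfkbiz, a nuclear IkB relative, rose in Bank1-/- by 2.67 on the log2 scale (adjusted p = 2.49e-10), and by 3.13 without that library (adjusted p = 1.11e-17). Pdlim2, which removes p65 from the nucleus, fell 2.97-fold in WT (adjusted p = 7.93e-14) and rose 2.32-fold from 6 to 24 h (adjusted p = 1.13e-10). Tax1bp1 and Cyld, parts of the ubiquitin brakes, fell 4.84-fold and 2.60-fold in WT in 6 h (adjusted p = 6.47e-10 and 7.53e-10).

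Between the genotypes at 6 h 4 genes of the receptor list were higher in Bank1-/- and 2 lower, of the brakes 5 higher and 1 lower, and of the targets 9 higher and 5 lower, where 22.1% of all genes were called. Without the library that stood apart these were 7 and 2, 5 and 1, and 11 and 6, where 30.7% were called. Ccl5, a chemokine, was 3.79-fold higher in Bank1-/- (log2 difference 1.92, adjusted p = 4.28e-11). Irf1, an interferon regulatory factor, was 2.76-fold higher (adjusted p = 9.06e-05), and Myc, a growth regulator, was 2.47-fold lower (adjusted p = 1.2e-05). Malt1 was higher by 0.86 (adjusted p = 0.00699) and Traf2, an adaptor of TNF receptors, lower (log2 difference -0.55, adjusted p = 0.00259). Zc3h12a, an RNase that cuts cytokine mRNA, was higher by 0.60 (adjusted p = 0.00954). The brightness of the arrays and the erythroid markers moved with the genotype in these same libraries. At 0 h 1.52% of all genes were called. The calls were 1 higher in the receptor list (Irak3, 0.59, adjusted p = 0.00903), none among the 20 brakes (3 at an unadjusted p under 0.05 by limma), and 1 higher (Il10) and 2 lower (Junb and Irf4) among the targets. Without the library that stood apart Junb and Irf4 were not called (adjusted p = 0.068 and 0.0993), and Irak3 and Il10 were (0.52 and 0.51, adjusted p = 0.0281 and 0.0426). N4bp1, a brake, was then called higher (0.40, adjusted p = 0.0393) and Ccl4, a target, lower (-0.41, adjusted p = 0.0392), both named after their values were seen. Of all genes 1.21% were called at 0 h without that library. At 24 h limma called 0 in each list (1 of 27, 1 of 20 and 4 of 36 at an unadjusted p under 0.05), where 0.106% of all genes were called. Without the library that stood apart 1 target was called higher and 1 lower at 24 h, where 0.36% were called. At 48 h it also called 0 (0 of 27, 0 of 20 and 2 of 36 at an unadjusted p under 0.05), where 0.169% were called.

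The change from 0 to 6 h differed between genotypes for 3 genes of the receptor list that were higher and 1 that was lower (Bank1-/- minus WT), for 4 brakes that were higher and 0 lower, and for 8 targets that were higher and 1 lower, where 9.39% of all genes were called. Without the library that stood apart the counts were 2 higher and 3 lower, 3 and 1, and 12 and 2, so that the receptor list held more lower than higher, where 12.6% of all genes were called. Tnfaip3, the gene of the ubiquitin brake A20, had a difference of change of 1.21 (SE 0.312, adjusted p = 0.0152) and of 1.095 without the library that stood apart (adjusted p = 0.0199). Ccl5 had 2.11 (adjusted p = 6.41e-08) and Irf1 1.84 (adjusted p = 0.0014), beside 1.94 and 1.35 without that library (adjusted p = 1.55e-08 for both).

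For each of the 9 genes the 2 tested genes most like it were those with the highest Pearson correlation over the 8 group means, given as a description over arrays they share. Nfkb2 was followed most closely by Lta, a cytokine of the TNF family (r = 0.998), and Ccr7, a homing receptor (r = 0.995). Rel was followed by Cep43 and Impact (r = 0.989 and 0.988), Rela by Cars and Gne (0.994 and 0.991) and Relb by Rnf19b and P2rx4 (0.994 and 0.992). Of the inhibitors, Nfkbia was followed by Srrt and Cnot10 (0.986 and 0.983), Nfkbib by Stat6 and Ltc4s (0.994 and 0.991) and Nfkbie by 4632427E13Rik and Snx18 (0.993 and 0.986). Nfkbid was followed by Ets2 and Ppbp (0.992 and 0.992), and Bcl3 by Spo11 and Cmtm8 (0.994 and 0.994). Over all 40 libraries the correlation of Nfkb2 with Lta was 0.979 and that of Nfkbia with Srrt 0.652. Nfkb1 lies near Bank1 on chromosome 3, with 1 protein-coding gene, Slc39a8, between them in the RefSeq order (GRCm38.p6).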

How the data were processed

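RNA of 40 B cell samples (150 ng each) was hybridised to 1-colour Illumina bead arrays. The authors deposited raw probe intensity per array, and a processed table on the log2 scale whose normalization is not given in the sources used here. The raw table holds 8 further columns of per-sample values that match no sample here, and these were not used. Of 45281 probes 34885 had 1 gene symbol in the platform annotation (2016, updated through GRCm38.p6), 18 several and 10378 none.

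Intensity was background-corrected with normexp (offset 50), quantile normalized and taken to log2. A probe was detected above the 99th percentile of 1287 olfactory receptor probes on its array and had to be so on 5 or more of the 40 arrays. Groups were compared in limma 3.58.1 (R 4.3.3; lmFit and eBayes, 1 coefficient for each of 8 groups, 32 residual degrees of freedom), over 17 comparisons, with Benjamini-Hochberg adjustment within each. Tables and figures used Python 3.11.15, numpy 2.4.6, pandas 2.3.3 and matplotlib 3.10.9. The code was tested on simulated data. The number of arrays limits the precision.

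The text names the 10 genes, Bank1 and its neighbour, up to 3 called genes of smallest p per list and comparison, and the 2 genes most like each. The members and lists were chosen with earlier results of these data known. Marker lists for B, T, NK, myeloid, dendritic, erythroid and platelet cells were also read. Replicate numbers were not taken as pairs: in 0 of 28 group pairs did every same-numbered correlation exceed 0.1 (range -0.49 to 0.45). No 2 arrays were identical. Alternatives were the background, normalization, filter, probe, array weights, brightness, replicate block, fitted groups and left-out libraries.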

Additional observations from a re-analysis of the deposited data

Results flagged for a closer look

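Within groups of 5 libraries, 8 of 72 gene-by-group sets held 1 library far from the others, where chance gives about 1 in 20. Of these, 6 were the library labelled Bank1-/- 0 h replicate 5, which was low for Rela (10.3, the others from 11.45 to 11.71), Relb (6.672, from 8.663 to 8.896), Nfkb2 (7.008, from 8.768 to 9.216), Nfkbib (6.606, from 7.957 to 8.225), Nfkbid (9.393, from 11.44 to 11.91) and Nfkbie (6.63, from 8.695 to 8.875). The remaining 2 were Nfkbia in WT 48 h replicate 4 (10.93, the others from 11.1 to 11.16) and Nfkbie in WT 0 h replicate 1 (9.233, from 8.749 to 8.857). The change of Rel from 0 to 6 h differed between genotypes by 1.33 on the log2 scale (limma interaction, adjusted p = 0.0137).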

How the results depend on the processing

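Over 153 differences of the 9 genes, 3607 alternative values were computed, of which 50 lost the call, 62 gained it and 9 turned direction from or to a call. The other 3486 stayed on the same side of the threshold, among them 112 whose sign differed and which were called in neither setting. The 9 turned values were, under median scaling, Rela between genotypes at 6 h (1.01, adjusted p = 0.0155), Nfkbia between genotypes at 6 h (0.37, adjusted p = 0.175), Nfkbie in WT from 0 to 6 h (-0.017, adjusted p = 0.976), and Rela and Nfkbid in WT from 6 to 24 h (0.75 and 0.52, adjusted p = 0.0595 and 0.318). With array weights they were Relb in Bank1-/- from 0 to 6 h (-0.24, adjusted p = 0.0331) and the change of Relb from 0 to 6 h between genotypes (-0.41, adjusted p = 0.0378). With the second probe they were Nfkbia between genotypes at 6 h (0.17, adjusted p = 0.631) and the change of Nfkbie from 0 to 6 h (-0.77, adjusted p = 0.0391). The second probe and the removal of Bank1-/- 0 h replicate 5 from every comparison were chosen after seeing the data.

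Counts of called genes moved as follows. Between genotypes at 0 h (1) the count was 0 with median scaling or the compared groups alone and 2 with array weights or the brightness covariate, and at 6 h (1) it was 2, 4 and 0 with median scaling, array weights and the brightness covariate. At 24 h (0) it was 4 with array weights. In WT it was 3 in place of 7 from 6 to 24 h with median scaling, and 9 and 8 in place of 4 from 24 to 48 h with array weights and the compared groups alone. The change from 0 to 6 h (1) gave 0 with median scaling, the brightness covariate or the compared groups alone and 3 with array weights, and the change from 0 to 24 h (0) gave 1 with array weights. Over all genes, the count called between genotypes was 144 at 0 h and 2088 at 6 h, and 406 and 362 with the brightness covariate. The cause was not tested.

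Leaving out 1 library gave from 0 to 2 calls at 0 h (0 without WT 0 h replicate 1), from 1 to 3 at 6 h (3 without Bank1-/- 0 h replicate 5), from 3 to 8 in WT from 24 to 48 h and from 1 to 2 for the change from 0 to 6 h. The ranges were from 5 to 7 for WT 0 to 6 h, from 7 to 8 for WT 6 to 24 h and Bank1-/- 0 to 6 h, from 8 to 9 for Bank1-/- at 24 and 48 h from 0 h, from 5 to 7 for Bank1-/- 6 to 24 h and from 2 to 3 for Bank1-/- 24 to 48 h.

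With the replicate block the counts were the same in all 17 comparisons (1 at 0 h and 1 at 6 h between genotypes), with adjusted p = 0.0188 for Rel at 0 h, 0.00137 for Nfkbia at 6 h and 0.0163 for the change of Rel. Median scaling moved the median of all genes by 0.55 between genotypes at 6 h, and the share of higher calls from 65.8% to 99.7%. A slide block was not run, since the headers used here give no slides. Nfkbie at 24 h lay near the detection limit, which ran from 6.26 to 6.98 over the arrays. Nfkbib, detected on all 40 arrays, also lay near it late in WT, from 6.52 to 6.74 at 24 h and from 6.41 to 6.58 at 48 h. The lowest Rel level in WT at 6 h, in replicate 4, was 6.95 beside a limit of 6.83 on that array.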
